A study of Mus musculus with 16 samples.

Results

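The genes described here are 45 mouse genes of mitosis, the part of the cell cycle in which G2 cells enter M phase, divide their chromosomes and split. They are the mitotic kinases and cyclins, the chromosomal passenger proteins, the spindle checkpoint, partners of the anaphase ubiquitin ligase, and separase. The list also holds centromere and kinetochore proteins, mitotic kinesins, cytokinesis proteins, and the proliferation markers Top2a and Mki67. They were listed by gene name, with no rule on how they differ between groups. They and the other gene lists used below were nevertheless chosen with earlier results of these data known. A gene counted as measured if a probe set of the array carried its symbol and no other, and where several did, the brightest was taken. This held for 44 of the 45 genes, out of 22180 genes measured in all. The remaining gene, Ccnf, lies only on a probe set that also carries Mir5134, and it has no value here.

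RNA from sorted bone-marrow progenitors of wild-type C57BL/6 mice was hybridised to 16 arrays. Common myeloid progenitors (CMP) had 3 arrays from mice on control water and 3 from mice on antibiotic water. Granulocyte-monocyte progenitors (GMP) and committed monocyte progenitors (cMoP) each had 2 control and 3 antibiotic arrays. Antibiotic water held ampicillin, metronidazole, neomycin and vancomycin at 1 g/L each, was given for 3 weeks, and, like control water, contained 2% sucrose. All sorted cells were negative for lineage antigens, Sca-1 among them, and for CD105, and positive for c-Kit. CMPs had intermediate CD16/32 and no CD115, GMPs had high CD16/32 and no CD115, and cMoPs had CD115 and Ly6C. The labels do not state the age or sex of the mice, or whether an array stands for a mouse or a pool, so the tests below see only how these samples vary, which may be technical.

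Entry into mitosis is driven by Cdk1 with cyclins A and B and is reinforced by Polo and Aurora kinases. Kinetochores then attach chromosomes to spindle microtubules, the checkpoint holds the anaphase-promoting complex in check until attachment is complete, and centralspindlin and its partners direct the cleavage of the cell. Transcripts of these genes accumulate in G2 and fall after division, so in bone marrow they are read as a sign of cycling cells, and early myeloid progenitors are among the marrow cells that divide often. In RNA of sorted populations, a smaller share of cells in G2 or M and less of a transcript per cell cannot be told apart.

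Many promoters of mitotic genes carry a cell cycle genes homology region, or CHR, with the core TTTGAA, a site through which the DREAM and MuvB-type complexes act, together with CCAAT boxes bound by NF-Y. The RefSeq promoter table of build GRCm38.p6, with 250 bases before and 50 after each start, held 42 promoters of 40 of the listed genes; Ccna2, Cdc25c, Aurkb, Tpx2 and Kif20a were not in it. Both strands were searched, and matches of different motifs were free to share bases. The CHR core was searched as TTTGAA and as its variant with the letters TTTAAA, NF-Y boxes were searched as CCAAT, and an E2F site was searched as TTTGGCGC. The first of these was present in 33 of the 42 promoters (78.6%) against 17.9% of all 32851 promoters, and the NF-Y box in 31 (73.8%) against 37.4%. Both together were present in 28 (66.7%) against 6.95%. The variant core was found in 9 (21.4%) against 13.2% and the E2F site in 2 (4.76%) against 0.514%. A match is a string of letters and was not shown to be a bound site.

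The CHR core lay close to the start. Of the 33 promoters with TTTGAA, 93.9% had it between positions -30 and 40, against 20.3% of all promoters with the motif. Position 0 is the first base of the start given in the promoter table. For 21 of the 40 genes that start was within 1 base of the end of the RefSeq gene. The window was chosen after the positions had been seen. The 30-base windows that follow show the core in genes whose levels are described further on, 5′ to 3′ on the gene's own strand, with the core or its reverse complement TTCAAA in capitals. Kif23, Racgap1, Aurka, Plk1, Ect2, Spc25, Kif15, Espl1, Kif2c, Ttk, Cdk1, Ube2c and Top2a were higher in cMoPs than in CMPs, whereas Ccnb2, Cenpa and Mki67 are shown because they were not.
Kif23, chr9:61946780-61946809, minus strand: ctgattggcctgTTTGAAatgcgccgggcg
Racgap1, chr15:99651634-99651663, minus strand: ctggtgcgtgatTTTGAAccggatctggcg
Aurka, chr2:172370521-172370550, minus strand: aaaaggagaaccTTTGAAttgtaacggctg
Plk1, chr7:122159453-122159482, plus strand: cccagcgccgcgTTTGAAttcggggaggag
Ect2, chr3:27153822-27153851, minus strand: cgactggattttTTTGAAtcggaggcggca
Spc25, chr2:69206172-69206201, minus strand: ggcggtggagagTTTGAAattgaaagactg
Kif15, chr9:122951050-122951079, plus strand: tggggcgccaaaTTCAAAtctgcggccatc
Espl1, chr15:102296254-102296283, plus strand: tcactagggataTTTGAAaggaggtgctgg
Kif2c, chr4:117178858-117178887, minus strand: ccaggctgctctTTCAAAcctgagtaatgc
Ttk, chr9:83834684-83834713, plus strand: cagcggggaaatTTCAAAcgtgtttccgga
Cdk1, chr10:69352910-69352939, minus strand: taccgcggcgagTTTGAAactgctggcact
Ube2c, chr2:164769888-164769917, plus strand: ggagggttgcaaTTCAAAcgcgggcggcgg
Top2a, chr11:99024195-99024224, minus strand: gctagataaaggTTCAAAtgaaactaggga
Ccnb2, chr9:70421533-70421562, minus strand: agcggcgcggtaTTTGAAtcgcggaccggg
Cenpa, chr5:30666890-30666919, plus strand: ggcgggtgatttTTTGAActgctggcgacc
Mki67, chr7:135716460-135716489, minus strand: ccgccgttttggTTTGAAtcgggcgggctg

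The core nearest the start began at position 2 in Kif23, 5 in Racgap1, 30 in Plk1, 32 in Aurka, -15 in Cdk1, -19 in Kif15, -23 in Top2a and -29 in Ube2c. In Kif2c it lay farther upstream, at -103, but the start used for Kif2c lies inside the RefSeq gene, whose 5′ end is at chr4:117182624. Of the genes shown that were not higher in cMoPs, Ccnb2 had it at 4 and Cenpa at 16. Mki67 had it at -98 from the start used, and another core at -116. That start, too, lies inside the RefSeq gene, whose 5′ end is at chr7:135716450. The same held for Aurka (5′ end at chr2:172370886) and Ect2 (5′ end at chr3:27154253), among others. Cdk1, Kif15, Top2a and Ccnb2 also had a further core upstream, at -71, -234, -179 and -167. The 120 bases before the start of Ube2c, Cdk1 and Top2a show how CCAAT boxes, often in the reversed form ATTGG, precede the core nearest the start. In Cdk1 the further core at -71 lies between the boxes at -80 and -48. Boxes in either orientation and the CHR core are in capitals.
Ube2c, chr2:164769809-164769928, plus strand: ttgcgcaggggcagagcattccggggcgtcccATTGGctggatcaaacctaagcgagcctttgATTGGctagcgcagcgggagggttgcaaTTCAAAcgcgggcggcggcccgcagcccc
Cdk1, chr10:69352913-69353032, minus strand: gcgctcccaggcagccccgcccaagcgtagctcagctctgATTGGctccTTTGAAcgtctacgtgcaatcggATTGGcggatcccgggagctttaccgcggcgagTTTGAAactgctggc
Top2a, chr11:99024190-99024309, minus strand: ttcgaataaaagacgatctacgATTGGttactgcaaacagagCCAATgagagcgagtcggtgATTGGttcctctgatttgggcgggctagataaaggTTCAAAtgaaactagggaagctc

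Restricting the search to the 200 bases before the start left TTTGAA in 35.7% of the genes' promoters against 12.5% of all, and CCAAT in 73.8% against 29.3%. In the full window of 250 bases before to 50 after the start, the other lists of cell cycle genes held TTTGAA in between 10.5% and 59.1% of their promoters. The share was 59.1% for other spindle and cytokinesis genes, 41.2% for condensin and cohesin, 35.7% for other centromere and kinetochore genes, 29.6% for transcription factors, 28.6% for other mitotic regulators, 12.1% for S phase genes, 11.8% for subunits of the anaphase-promoting complex and 10.5% for G1 cyclins, kinases and inhibitors. CCAAT was found in 77.3%, 41.2%, 67.9%, 44.4%, 71.4%, 63.6%, 35.3% and 47.4% of them, in the same order. In the 200 bases before the start, TTTGAA was in 36.4% of the promoters of other spindle and cytokinesis genes, 9.09% of those of S phase genes and 10.5% of those of the G1 list. Of the 30 measured genes with TTTGAA, 23 were higher in cMoPs than in CMPs by the test given below, with a median log2 difference of 0.39, and of the 9 measured genes with a promoter but no TTTGAA, 5 were, with a median of 0.26. Whether these groups differ was not tested.

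**Figure D1:**
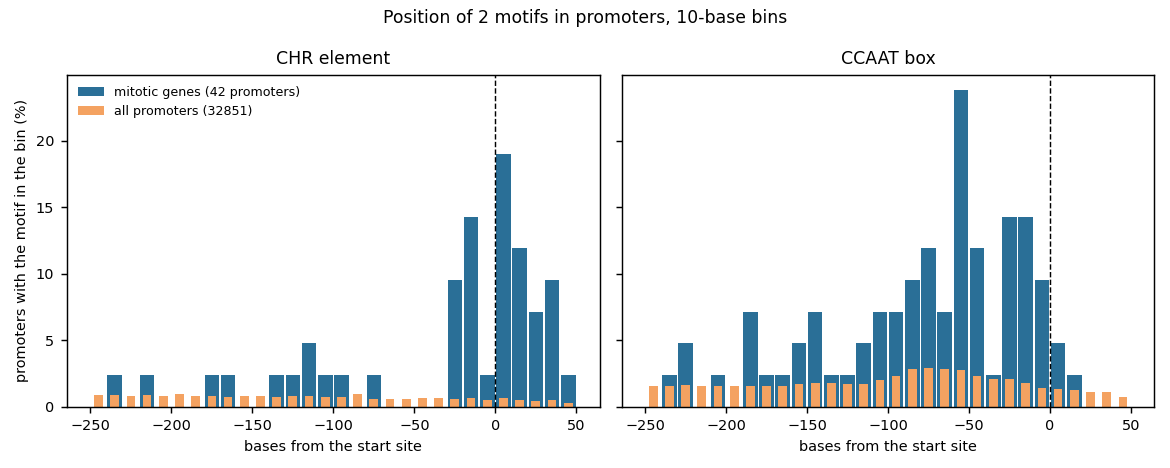
Share of promoters (percent) that hold the CHR element (TTTGAA or its reverse complement, left) or the CCAAT box (right) in each 10-base bin, against the distance in bases from the start site, for the 42 promoters of the mitotic genes (blue) and all 32851 promoters (orange). The CHR matches of the mitotic genes crowd around the start and the CCAAT matches lie mostly before it.

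The labels were checked with genes of the sort gate and of the lineages. Csf1r, which encodes CD115, was 2.53 ± 0.13 higher in cMoPs than in CMPs on the log2 scale, Fcgr3, which encodes CD16, was 3.14 ± 0.15 higher in GMPs than in CMPs, and Ly6c2 was 2.41 ± 0.18 higher in cMoPs than in CMPs. These are 3 of 9 measured genes of the sort gate, and not all of the 9 rose. In GMPs against CMPs, 6 were called higher and 2 lower, and in cMoPs against CMPs 5 higher and 2 lower. In cMoPs against GMPs only 1 was called higher, Csf1r, and 2 lower, so Ly6c2 was not called higher there. All 6 genes associated with GMPs were called higher in GMPs than in CMPs, and all 7 associated with cMoPs were called higher in cMoPs than in GMPs. The 6 were also called higher in cMoPs than in CMPs, and only 2 of them lower in cMoPs than in GMPs. All 6 genes associated with CMPs were called lower in GMPs than in CMPs, but in cMoPs against GMPs 2 were called higher and 4 lower. Of all genes, 16% were called between GMPs and CMPs, 5.42% between cMoPs and GMPs and 18.9% between cMoPs and CMPs. The sorted groups also differed in other lineage genes. The mean log2 signal of 13 measured erythroid genes was 8.0 to 8.36 over CMP arrays, 5.04 to 5.5 over GMP arrays and 4.86 to 5.01 over cMoP arrays, and 11 of the 13 were called lower in GMPs and in cMoPs than in CMPs. For 8 megakaryocyte genes the mean was 6.69 to 7.14 in CMPs, 5.32 to 5.7 in GMPs and 4.24 to 4.56 in cMoPs, with 7 called lower in cMoPs than in CMPs. For 8 genes of eosinophils, basophils and mast cells it was 6.15 to 6.63 in CMPs, 7.34 to 7.74 in GMPs and 4.6 to 4.85 in cMoPs. For 11 genes of monocytes and macrophages it was 5.29 to 5.82 in CMPs, 6.02 to 6.27 in GMPs and 6.37 to 6.66 in cMoPs, and for 10 genes of stem and multipotent cells it was 6.27 to 6.6, 5.26 to 5.46 and 5.07 to 5.42. No erythroid, megakaryocyte or stem cell gene lay below the lower quartile of the table in any group mean, 2 of the 8 eosinophil, basophil and mast cell genes did in CMPs and in cMoPs, and 0 of the 11 monocyte and macrophage genes did. For 12 genes of mature neutrophils the mean was 7.97 to 8.39 in CMPs, 7.78 to 8.05 in GMPs and 7.56 to 7.94 in cMoPs. The values carry no detection calls. The lineage lists thus differed between progenitors as well, though not all at each step. The ranges of stem and multipotent genes overlapped between GMPs and cMoPs. Those of mature neutrophil genes overlapped between CMPs and GMPs and between GMPs and cMoPs. The part of these lists in the differences between progenitors given below was not tested.

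All 44 measured genes were among the brighter genes of the table. Their mean log2 signals over the 16 arrays ran from 6.9 for Spc25 to 10.12 for Ccnb2, with a median of 8.48, and all 44 lay above 6.84, the upper quartile of the gene means. The brightness of different probe sets does not rank transcripts by abundance. The median standard deviation between arrays of the same group was 0.125 for these genes and 0.2 for all genes brighter than the median gene. Quartiles of the 16 arrays were close to each other, with medians between 4.04 and 4.17.

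**Figure D2:**
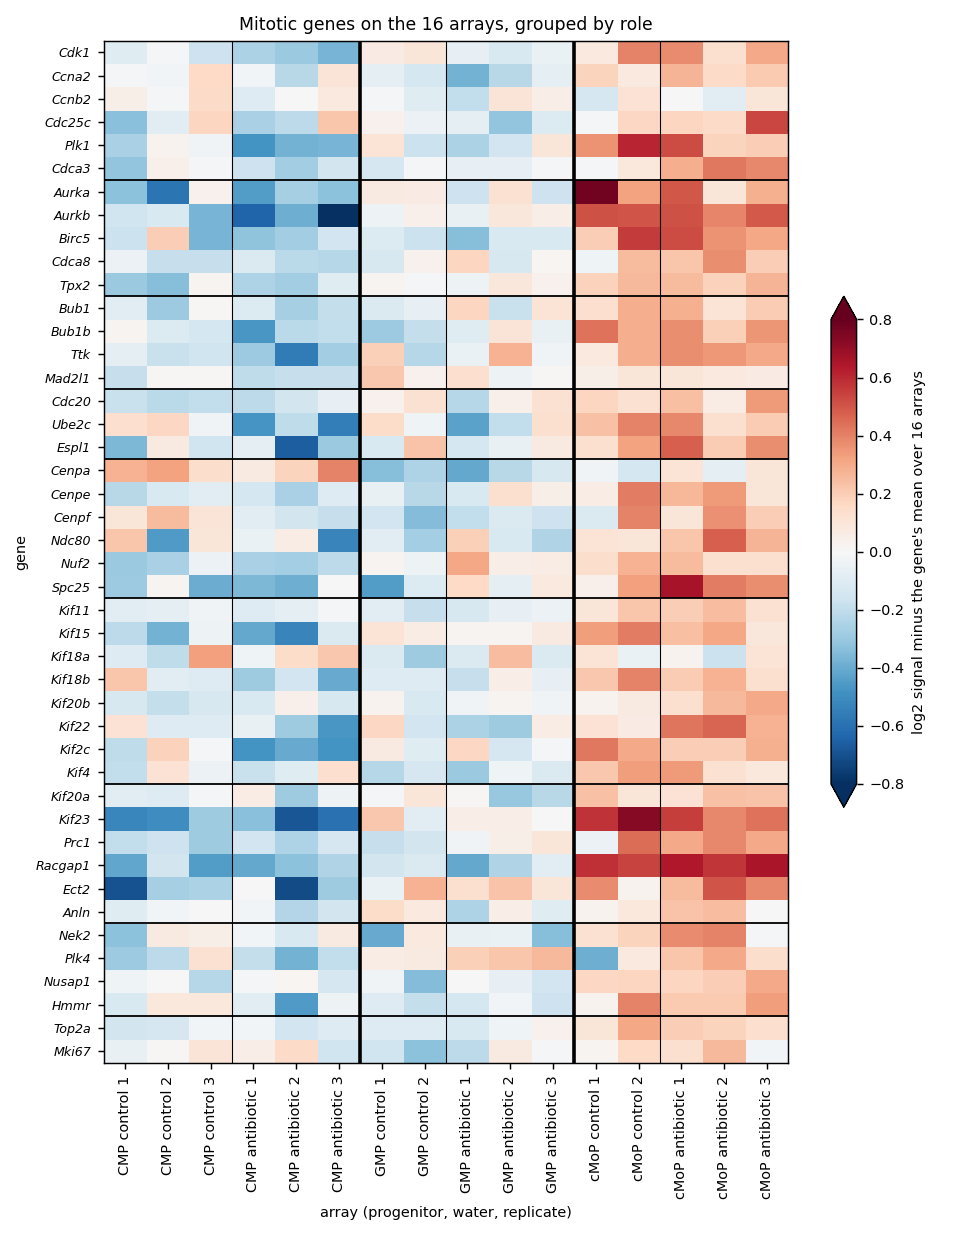
Log2 signal of each of the 44 measured genes on each of the 16 arrays minus the gene's mean over the 16 arrays, on a colour scale from blue (low) to red (high), with the genes in the order of the roles used in the text and the arrays grouped by progenitor and water. The 5 cMoP arrays at the right are red for most genes and the 6 CMP arrays at the left are blue for many of them.

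Committed monocyte progenitors carried the highest level of most mitotic genes. The cMoP mean, taken equally over both waters, was the highest of the 3 progenitors for 39 of the 44 genes, against 38.1% of all genes, the CMP mean for 3, against 31.4%, and the GMP mean for 2, against 30.5%. CMPs were lowest for 31 genes, GMPs for 13 and cMoPs for 0. Averaged over the 44 genes, the log2 signal was 8.24 to 8.42 on CMP arrays, 8.4 to 8.46 on GMP arrays and 8.64 to 8.77 on cMoP arrays. The ranges of GMPs and CMPs overlapped, and the cMoP arrays all lay above both.

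Against CMPs, 30 of the 44 genes were called higher in cMoPs and 0 lower. A gene was called at a Benjamini-Hochberg adjusted p under 0.05 in limma over all 22180 genes, and by this rule 18.9% of all genes were called, 9.72% as higher and 9.2% as lower. When only the genes brighter than the median gene were tested, 34 of the 44 were called, 33 of them higher, against 38% of those genes, 19% as higher. The differences of these 44 genes were small, with a median of 0.355 on the log2 scale against 0.044 over all genes, and 41 of them were positive, against 58.1% of all genes. The cMoP and CMP arrays did not overlap for 25 genes, all higher in cMoPs, against 6.87% of all genes in that direction and 6.33% in the other.

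Against GMPs, 8 genes were called higher in cMoPs and 0 lower, which is 18.2% of the 44 genes against 5.42% of all genes, 2.6% as higher and 2.82% as lower. When only the brighter genes were tested, 17 of the 44 were called, all higher, against 12.7% of those genes, 6.27% as higher. The median difference was 0.281, 42 differences were positive against 53% of all genes, and 15 genes had every cMoP array above every GMP array, against 3.33% of all genes, and 0 the reverse, against 3.17%. At an unadjusted p under 0.05, 33 genes were higher in cMoPs than in GMPs, against 8.49% of all genes. Between GMPs and CMPs, 6 genes were called higher in GMPs and 1 lower, 15.9% of the 44 against 16% of all genes (7.87% higher and 8.17% lower), a share no larger than the background. When only the brighter genes were tested, 10 of the 44 were called, 9 of them higher, against 33.2% of those genes, 15.5% as higher. The median of that difference was 0.095, with 31 positive against 54.5% of all genes. Arrays did not overlap for 4 genes that were higher and 1 that was lower in GMPs, against 5.49% and 5.75%. Because the comparisons share arrays, they are not independent of each other.

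The counts moved with the arrays used. Between GMPs and CMPs only Aurkb, Cenpa and Kif23 stayed called whichever array was left out, and the count was 4 without CMP control 2, CMP antibiotic 1, CMP antibiotic 2, GMP control 1 or GMP control 2. Between cMoPs and GMPs, Aurkb, Bub1b, Kif23 and Racgap1 stayed called, and the count was 5 without GMP antibiotic 1, 4 without cMoP control 2 and 5 without cMoP antibiotic 1. Between cMoPs and CMPs, 20 of the 30 genes stayed called whichever array was left out, and the count ran from 21 to 30.

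**Figure D3:**
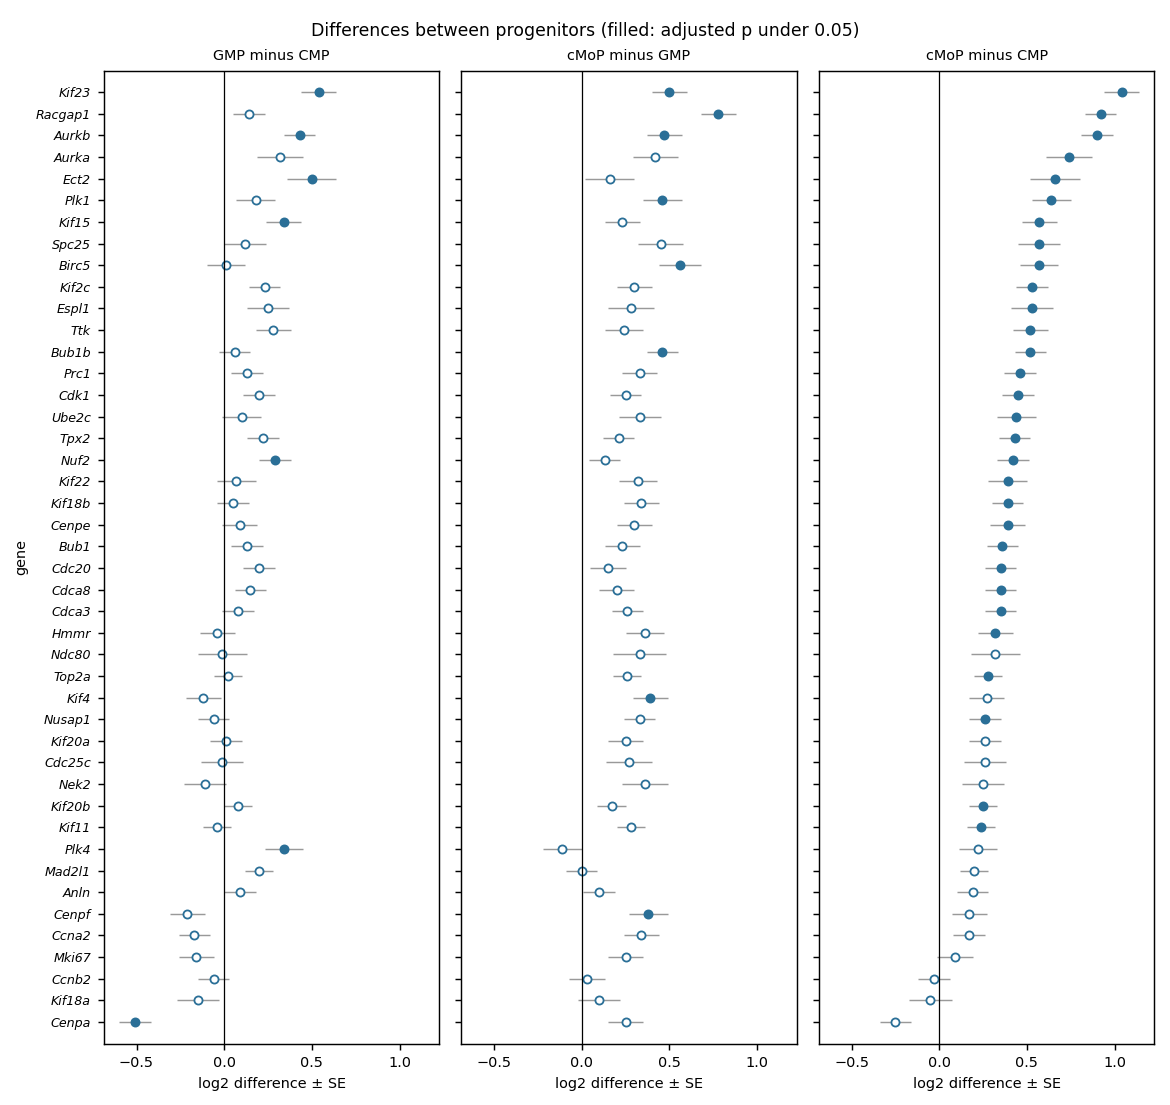
Log2 difference between progenitors, equal-weight mean over both waters, with its standard error, for the 44 measured genes ordered by the difference between cMoPs and CMPs; filled points have a limma adjusted p under 0.05. In the right panel 30 points are filled and all lie above 0, from Kif11 (0.24) to Kif23 (1.04).

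In what follows, levels are log2 signals of single arrays in the order of their replicate numbers, and differences are log2 differences between progenitor means with the standard error of the fit. The cytokinesis genes held the largest differences. Kif23 and Racgap1 encode the subunits of centralspindlin, which bundles the spindle midzone and recruits Ect2, an exchange factor needed for the cleavage furrow. Of the 6 genes of this group, 4 were called higher in cMoPs than in CMPs, namely Kif23, Racgap1, Ect2 and the midzone bundler Prc1, and all 6 differences were positive. Kif23 read 7.87, 7.9 and 8.11 on control and 8.06, 7.71 and 7.8 on antibiotic CMP arrays. GMP arrays gave Kif23 values of 8.61 and 8.31 on control and 8.45, 8.45 and 8.39 on antibiotic water. In cMoPs Kif23 was at 8.97 and 9.12 with control and at 8.95, 8.78 and 8.83 with antibiotic water. Kif23 stepped up at each stage, with no overlap between any pair of progenitors. Its difference was 0.54 ± 0.1 (SE) from CMPs to GMPs with an adjusted p of 0.000851, 0.5 ± 0.1 from GMPs to cMoPs (0.00643), and 1.04 ± 0.1 from CMPs to cMoPs (7.38e-07), a 2.06-fold change.

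The signal of Racgap1 was 7.92, 8.19 and 7.89 in control and 7.93, 8.01 and 8.1 in antibiotic CMPs. For GMPs, Racgap1 read 8.19 and 8.22 in control and 7.93, 8.1 and 8.25 in antibiotic arrays. For cMoPs, Racgap1 read 8.92 and 8.88 in control and 8.98, 8.91 and 8.99 in antibiotic arrays. Racgap1 was set apart at the last step: its CMP and GMP arrays overlapped, and all 5 cMoP arrays lay above them. The difference between cMoPs and GMPs was 0.78 ± 0.1, or 1.72-fold (adjusted p 6.3e-05), and that between GMPs and CMPs was 0.14 ± 0.09 (adjusted p 0.359). CMP arrays gave Ect2 7.82, 8.25 and 8.26 with control and 8.51, 7.8 and 8.23 with antibiotic water. GMPs gave Ect2 8.46 and 8.79 with control and 8.64, 8.74 and 8.61 with antibiotics. For Ect2, cMoPs gave 8.89 and 8.54 with control and 8.77, 9.02 and 8.9 with antibiotics. For Ect2 the step came earlier, at 0.5 ± 0.14 from CMPs to GMPs (adjusted p 0.018; 0.102 without GMP control 2), and 0.16 ± 0.14 from GMPs to cMoPs, which was not called (adjusted p 0.682). Its CMP arrays were spread widely and overlapped the GMP arrays, but not the cMoP arrays.

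Prc1 read 8.36, 8.39 and 8.27 on control and 8.4, 8.31 and 8.42 on antibiotic CMP arrays. GMP arrays gave Prc1 values of 8.37 and 8.41 on control and 8.53, 8.6 and 8.65 on antibiotic water. In cMoPs Prc1 was at 8.51 and 9.0 with control and at 8.86, 8.94 and 8.86 with antibiotic water. Every cMoP array of Prc1 was above every CMP array, by 0.46 ± 0.09 on average (adjusted p 0.00184), although cMoP control 1 sat among the GMP arrays. The signal of Anln was 7.99, 8.06 and 8.09 in control and 8.06, 7.85 and 7.94 in antibiotic CMPs. For GMPs, Anln read 8.23 and 8.16 in control and 7.84, 8.14 and 7.99 in antibiotic arrays. For cMoPs, Anln read 8.11 and 8.17 in control and 8.31, 8.33 and 8.09 in antibiotic arrays. Anln, the furrow scaffold anillin, overlapped between all progenitors, and its difference between cMoPs and CMPs was 0.19 ± 0.09 (adjusted p 0.16). CMP arrays gave Kif20a 7.18, 7.17 and 7.26 with control and 7.33, 6.99 and 7.23 with antibiotic water. GMPs gave Kif20a 7.26 and 7.37 with control and 7.28, 6.97 and 7.05 with antibiotics. For Kif20a, cMoPs gave 7.51 and 7.37 with control and 7.39, 7.51 and 7.5 with antibiotics. Kif20a, the kinesin that carries passenger proteins to the midzone, had every cMoP array above every CMP array, but its difference of 0.26 ± 0.09 was not called (adjusted p 0.0653).

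All 5 genes of Aurora kinases and their partners were called higher in cMoPs than in CMPs. Aurkb is the kinase of the chromosomal passenger complex, Birc5 (survivin) and Cdca8 (borealin) are its passenger subunits, Aurka is the spindle-pole kinase and Tpx2 its activator. Aurkb read 9.16, 9.2 and 8.95 on control and 8.68, 8.93 and 8.5 on antibiotic CMP arrays. GMP arrays gave Aurkb values of 9.28 and 9.36 on control and 9.26, 9.41 and 9.37 on antibiotic water. In cMoPs Aurkb was at 9.83 and 9.82 with control and at 9.83, 9.71 and 9.81 with antibiotic water. Aurkb was ordered CMP, GMP, cMoP with no overlap, at 0.43 ± 0.09 for GMPs over CMPs (adjusted p 0.00415) and 0.47 ± 0.1 for cMoPs over GMPs (adjusted p 0.00855). From CMPs to cMoPs it rose by 0.9 ± 0.09 (adjusted p 2.72e-06).

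The signal of Aurka was 8.24, 7.98 and 8.6 in control and 8.12, 8.3 and 8.24 in antibiotic CMPs. For GMPs, Aurka read 8.64 and 8.63 in control and 8.4, 8.69 and 8.4 in antibiotic arrays. For cMoPs, Aurka read 9.34 and 8.89 in control and 9.06, 8.66 and 8.85 in antibiotic arrays. Aurka rose by 0.74 ± 0.13 from CMPs to cMoPs (adjusted p 0.000447) with no overlap between them. cMoP control 1 was the highest of its arrays, and the GMP arrays overlapped both other progenitors. CMP arrays gave Birc5 9.08, 9.45 and 8.88 with control and 8.93, 8.97 and 9.1 with antibiotic water. GMPs gave Birc5 9.14 and 9.08 with control and 8.91, 9.13 and 9.13 with antibiotics. For Birc5, cMoPs gave 9.45 and 9.81 with control and 9.77, 9.61 and 9.56 with antibiotics. Birc5 differed at the last step, by 0.56 ± 0.12 between cMoPs and GMPs (adjusted p 0.00923; 0.0598 without cMoP control 2), and by 0.01 ± 0.11 between GMPs and CMPs (adjusted p 0.956). Its cMoP arrays were all above the GMP arrays, whereas CMP control 2 reached the cMoP range. The differences between cMoPs and CMPs were 0.43 ± 0.09 for Tpx2 and 0.35 ± 0.09 for Cdca8, whose adjusted p of 0.0131 became 0.0826 without cMoP control 2.

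**Figure D4:**
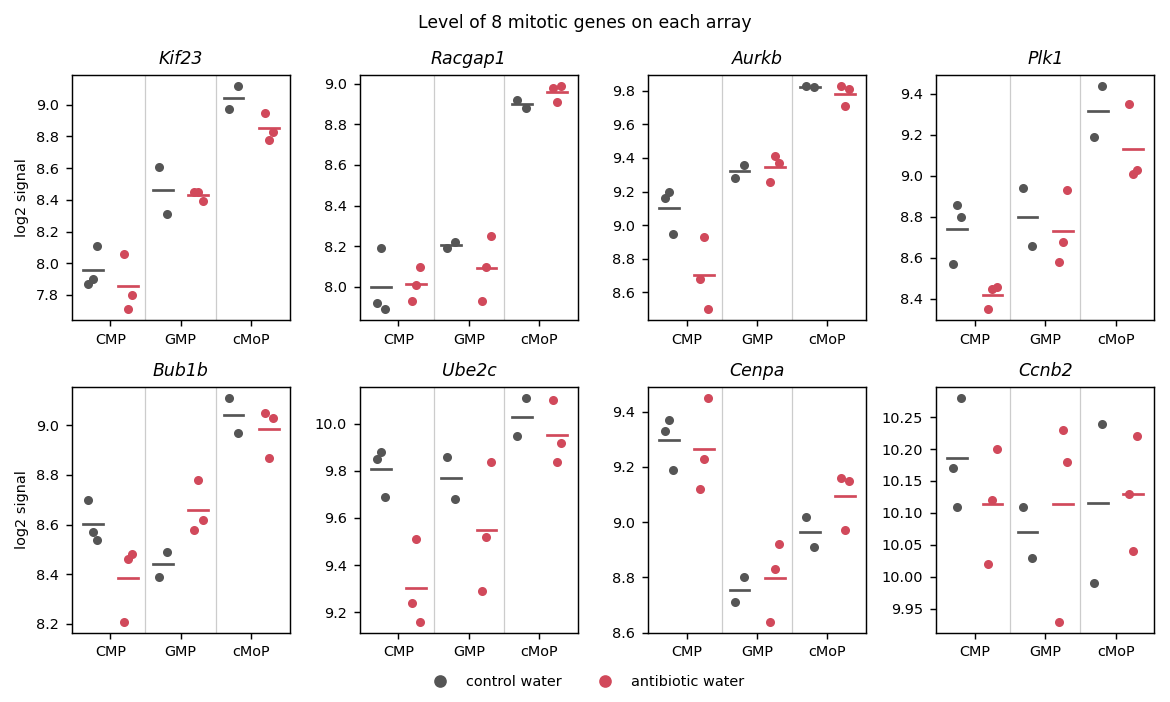
Log2 signal of Kif23, Racgap1, Aurkb, Plk1, Bub1b, Ube2c, Cenpa and Ccnb2 on each array (points), by progenitor, with control water in grey and antibiotic water in red, and the mean of each group as a bar. Aurkb and Kif23 rise in steps from CMP to cMoP, the 5 cMoP arrays of Racgap1 lie above its other 11, Cenpa is lowest in GMPs, and Ccnb2 overlaps in all groups.

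Among the kinases and cyclins of mitotic entry, 3 of 6 measured genes were called higher in cMoPs than in CMPs: Cdk1, the Polo kinase Plk1, and Cdca3, a trigger of mitotic entry. The cyclins themselves and the phosphatase Cdc25c, which activates Cdk1, were not called in any comparison. Plk1 read 8.57, 8.86 and 8.8 on control and 8.35, 8.45 and 8.46 on antibiotic CMP arrays. GMP arrays gave Plk1 values of 8.94 and 8.66 on control and 8.58, 8.68 and 8.93 on antibiotic water. In cMoPs Plk1 was at 9.19 and 9.44 with control and at 9.35, 9.01 and 9.03 with antibiotic water. Every cMoP array of Plk1 lay above every CMP and GMP array, by 0.64 ± 0.11 over CMPs (adjusted p 0.000364) and 0.46 ± 0.11 over GMPs (adjusted p 0.0253). The call against GMPs was lost without any of 5 arrays (GMP control 2, GMP antibiotic 1, GMP antibiotic 2, cMoP control 2 or cMoP antibiotic 1), with adjusted p up to 0.132.

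The signal of Cdk1 was 9.54, 9.62 and 9.47 in control and 9.38, 9.34 and 9.26 in antibiotic CMPs. For GMPs, Cdk1 read 9.7 and 9.73 in control and 9.57, 9.51 and 9.58 in antibiotic arrays. For cMoPs, Cdk1 read 9.71 and 10.03 in control and 10.01, 9.76 and 9.94 in antibiotic arrays. Cdk1 had no overlap between cMoPs and CMPs and a difference of 0.45 ± 0.09 (adjusted p 0.00136). CMP arrays gave Cdca3 7.49, 7.85 and 7.8 with control and 7.64, 7.53 and 7.66 with antibiotic water. GMPs gave Cdca3 7.67 and 7.8 with control and 7.74, 7.74 and 7.79 with antibiotics. For Cdca3, cMoPs gave 7.79 and 7.89 with control and 8.1, 8.23 and 8.19 with antibiotics. Cdca3 was 0.35 ± 0.09 higher in cMoPs than in CMPs (adjusted p 0.0107), and its highest arrays were the 3 of cMoPs on antibiotics. Ccnb2, the B-type cyclin of the list, differed by -0.03 ± 0.09 between cMoPs and CMPs and by -0.06 ± 0.09 between GMPs and CMPs, with adjusted p of 0.886 and 0.754. Over the 16 arrays its values ran from 9.93 to 10.28 in all progenitors alike. Ccna2, the A-type cyclin, was 0.17 ± 0.09 higher in cMoPs than in CMPs and 0.34 ± 0.1 higher than in GMPs (adjusted p 0.235 and 0.0576), and its cMoP arrays did not overlap its GMP arrays. Cdc25c gave 0.26 ± 0.12 between cMoPs and CMPs (adjusted p 0.168).

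Of the 4 spindle checkpoint genes, Bub1, Bub1b and Ttk were called higher in cMoPs than in CMPs and Mad2l1 was not. Ttk is the kinase that starts checkpoint signalling at unattached kinetochores, Bub1 and Bub1b (BubR1) are its scaffold and effector, and Mad2l1 (Mad2) binds Cdc20. Bub1b read 8.7, 8.57 and 8.54 on control and 8.21, 8.46 and 8.48 on antibiotic CMP arrays. GMP arrays gave Bub1b values of 8.39 and 8.49 on control and 8.58, 8.78 and 8.62 on antibiotic water. In cMoPs Bub1b was at 9.11 and 8.97 with control and at 9.05, 8.87 and 9.03 with antibiotic water. Bub1b stepped up at the last stage, with all cMoP arrays above all others, by 0.46 ± 0.09 over GMPs (adjusted p 0.0067) and 0.52 ± 0.09 over CMPs (adjusted p 0.000463). Its CMP and GMP arrays overlapped, at a difference of 0.06 ± 0.09.

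The signal of Ttk was 8.26, 8.16 and 8.18 in control and 8.05, 7.78 and 8.06 in antibiotic CMPs. For GMPs, Ttk read 8.53 and 8.11 in control and 8.29, 8.62 and 8.31 in antibiotic arrays. For cMoPs, Ttk read 8.42 and 8.63 in control and 8.71, 8.69 and 8.64 in antibiotic arrays. Ttk was 0.52 ± 0.1 higher in cMoPs than in CMPs without overlap (adjusted p 0.00175); the GMP arrays overlapped both. CMP arrays gave Mad2l1 8.8, 8.99 and 8.99 with control and 8.78, 8.8 and 8.8 with antibiotic water. GMPs gave Mad2l1 9.2 and 9.02 with control and 9.12, 8.94 and 8.99 with antibiotics. For Mad2l1, cMoPs gave 9.03 and 9.08 with control and 9.08, 9.06 and 9.05 with antibiotics. Mad2l1 differed by 0.2 ± 0.08 between cMoPs and CMPs (adjusted p 0.109), which was not called although the arrays did not overlap, and by 0 ± 0.09 between cMoPs and GMPs, where the arrays overlapped. Bub1 was 0.36 ± 0.09 higher in cMoPs than in CMPs (adjusted p 0.0128, and 0.0624 without cMoP control 2).

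All 3 genes of anaphase onset were called higher in cMoPs than in CMPs. Cdc20 activates the anaphase-promoting complex, Ube2c is its ubiquitin-conjugating enzyme, and Espl1 (separase) cuts the cohesin that holds sister chromatids. Ube2c read 9.85, 9.88 and 9.69 on control and 9.24, 9.51 and 9.16 on antibiotic CMP arrays. GMP arrays gave Ube2c values of 9.86 and 9.68 on control and 9.29, 9.52 and 9.84 on antibiotic water. In cMoPs Ube2c was at 9.95 and 10.11 with control and at 10.1, 9.84 and 9.92 with antibiotic water. The Ube2c difference was 0.44 ± 0.11 (adjusted p 0.0109; 0.0529 without cMoP control 2), and its control CMP arrays reached into the cMoP range while its antibiotic CMP arrays did not. The signal of Espl1 was 6.81, 7.24 and 7.01 in control and 7.1, 6.51 and 6.87 in antibiotic CMPs. For GMPs, Espl1 read 7.05 and 7.4 in control and 7.03, 7.11 and 7.24 in antibiotic arrays. For cMoPs, Espl1 read 7.3 and 7.49 in control and 7.65, 7.37 and 7.54 in antibiotic arrays. Espl1 had no overlap between cMoPs and CMPs and a difference of 0.53 ± 0.12 (adjusted p 0.00515). CMP arrays gave Cdc20 8.73, 8.69 and 8.71 with control and 8.7, 8.76 and 8.84 with antibiotic water. GMPs gave Cdc20 8.94 and 9.03 with control and 8.68, 8.95 and 9.03 with antibiotics. For Cdc20, cMoPs gave 9.08 and 9.03 with control and 9.15, 8.97 and 9.25 with antibiotics. Cdc20 had none either, at 0.35 ± 0.09 (adjusted p 0.011), and its difference between GMPs and CMPs was 0.2 ± 0.09 (adjusted p 0.175).

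Centromere and kinetochore genes were divided. Nuf2 and Spc25, parts of the Ndc80 complex that grips microtubules, and the kinetochore kinesin Cenpe were called higher in cMoPs than in CMPs. Cenpa, the histone variant that marks centromeres, was the only gene of the 44 called lower in a comparison, that of GMPs with CMPs. Cenpa read 9.33, 9.37 and 9.19 on control and 9.12, 9.23 and 9.45 on antibiotic CMP arrays. GMP arrays gave Cenpa values of 8.71 and 8.8 on control and 8.64, 8.83 and 8.92 on antibiotic water. In cMoPs Cenpa was at 9.02 and 8.91 with control and at 9.16, 8.97 and 9.15 with antibiotic water. All 6 CMP arrays of Cenpa lay above all 5 GMP arrays, with the cMoP arrays between them and overlapping both. The GMP level was -0.51 ± 0.09 relative to CMPs, a ratio of 0.704 (adjusted p 0.00105), and it stayed called whichever array was left out; the cMoP level was -0.25 ± 0.09 relative to CMPs (adjusted p 0.076).

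The signal of Spc25 was 6.61, 6.92 and 6.5 in control and 6.54, 6.51 and 6.9 in antibiotic CMPs. For GMPs, Spc25 read 6.45 and 6.79 in control and 7.06, 6.82 and 6.98 in antibiotic arrays. For cMoPs, Spc25 read 6.94 and 7.23 in control and 7.56, 7.31 and 7.27 in antibiotic arrays. Spc25 was 0.57 ± 0.12 higher in cMoPs than in CMPs (adjusted p 0.00241), with no overlap. CMP arrays gave Nuf2 8.9, 8.94 and 9.15 with control and 8.94, 8.93 and 8.99 with antibiotic water. GMPs gave Nuf2 9.22 and 9.16 with control and 9.51, 9.25 and 9.26 with antibiotics. For Nuf2, cMoPs gave 9.34 and 9.48 with control and 9.45, 9.33 and 9.33 with antibiotics. Nuf2 stood between, with GMP and cMoP arrays both above all CMP arrays, by 0.29 ± 0.09 in GMPs (adjusted p 0.033) and 0.42 ± 0.09 in cMoPs (adjusted p 0.00257). The call in GMPs was lost without any of 7 arrays (CMP control 1 or 2, CMP antibiotic 1 or 2, GMP control 1 or 2, or GMP antibiotic 1), with adjusted p of 0.0619 to 0.11. Cenpf read 7.41, 7.57 and 7.42 on control and 7.23, 7.17 and 7.13 on antibiotic CMP arrays. GMP arrays gave Cenpf values of 7.16 and 6.97 on control and 7.12, 7.2 and 7.15 on antibiotic water. In cMoPs Cenpf was at 7.2 and 7.71 with control and at 7.41, 7.68 and 7.51 with antibiotic water. Cenpf, a kinetochore and nuclear envelope protein, was called higher in cMoPs than in GMPs at 0.38 ± 0.11 (adjusted p 0.0491), a call lost without any of the 15 arrays other than cMoP control 1 (adjusted p 0.0542 to 0.232, the highest without cMoP control 2). The cMoP control 1 array of Cenpf sat among its GMP arrays. Cenpe differed by 0.39 ± 0.1 between cMoPs and CMPs (adjusted p 0.00753, and 0.0577 without cMoP control 2). Ndc80 itself gave 0.32 ± 0.14 (adjusted p 0.139).

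Of the 8 kinesin motors, 6 were called higher in cMoPs than in CMPs. They were Kif11 and Kif15, which slide spindle microtubules apart, the depolymerases Kif18b and Kif2c, the chromosome-bound Kif22, and Kif20b; Kif18a and Kif4 were not. The signal of Kif15 was 8.23, 8.06 and 8.4 in control and 8.03, 7.91 and 8.32 in antibiotic CMPs. For GMPs, Kif15 read 8.55 and 8.5 in control and 8.46, 8.46 and 8.51 in antibiotic arrays. For cMoPs, Kif15 read 8.77 and 8.85 in control and 8.68, 8.75 and 8.53 in antibiotic arrays. All CMP arrays of Kif15 lay below all GMP and cMoP arrays, by 0.34 ± 0.1 relative to GMPs (adjusted p 0.024) and 0.57 ± 0.1 relative to cMoPs (adjusted p 0.000406). The call between GMPs and CMPs was lost without any of 5 arrays (CMP control 2, CMP antibiotic 1, CMP antibiotic 2, GMP control 1 or GMP control 2), with adjusted p up to 0.0824.

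CMP arrays gave Kif2c 7.55, 7.94 and 7.74 with control and 7.28, 7.35 and 7.28 with antibiotic water. GMPs gave Kif2c 7.83 and 7.66 with control and 7.92, 7.62 and 7.74 with antibiotics. For Kif2c, cMoPs gave 8.18 and 8.06 with control and 7.95, 7.95 and 8.04 with antibiotics. Kif2c had all cMoP arrays above all others, at 0.53 ± 0.09 over CMPs (adjusted p 0.000643). Kif4 read 7.69, 8.0 and 7.84 on control and 7.71, 7.79 and 8.02 on antibiotic CMP arrays. GMP arrays gave Kif4 values of 7.66 and 7.75 on control and 7.59, 7.85 and 7.77 on antibiotic water. In cMoPs Kif4 was at 8.1 and 8.22 with control and at 8.23, 8.01 and 7.97 with antibiotic water. Kif4, a chromokinesin, was 0.39 ± 0.1 higher in cMoPs than in GMPs (adjusted p 0.0359; 0.0527 to 0.128 without any of 8 arrays, namely either GMP control, GMP antibiotic 1 or 3, either cMoP control, or cMoP antibiotic 1 or 2) and 0.27 ± 0.1 higher than in CMPs, which was not called (adjusted p 0.0675). The signal of Kif18a was 7.1, 7.0 and 7.53 in control and 7.17, 7.35 and 7.42 in antibiotic CMPs. For GMPs, Kif18a read 7.09 and 6.92 in control and 7.09, 7.45 and 7.09 in antibiotic arrays. For cMoPs, Kif18a read 7.31 and 7.15 in control and 7.23, 7.03 and 7.31 in antibiotic arrays. Kif18a overlapped everywhere, with -0.05 ± 0.12 between cMoPs and CMPs (adjusted p 0.823). The other kinesins differed between cMoPs and CMPs by 0.24 (Kif11) to 0.39 (Kif18b and Kif22). The call of Kif11 was lost without any of 12 arrays, all but GMP control 1, GMP control 2, GMP antibiotic 1 and cMoP antibiotic 3 (adjusted p 0.0502 to 0.138). That of Kif20b was lost without any of 9, namely the CMP and cMoP arrays other than CMP antibiotic 2 and cMoP antibiotic 1 (0.0526 to 0.1), and that of Kif22 without cMoP control 1 (0.0606).

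The remaining 6 genes act at the centrosome, the spindle or the mitotic chromosome. Nusap1 and Hmmr, which bundle and anchor spindle microtubules, and Top2a, the topoisomerase that untangles sister chromatids, were called higher in cMoPs than in CMPs; Plk4, the kinase of centriole duplication, the centrosome kinase Nek2 and the proliferation antigen Mki67 were not. CMP arrays gave Top2a 9.93, 9.94 and 10.05 with control and 10.05, 9.92 and 9.97 with antibiotic water. GMPs gave Top2a 9.97 and 9.97 with control and 9.95, 10.04 and 10.11 with antibiotics. For Top2a, cMoPs gave 10.17 and 10.38 with control and 10.27, 10.25 and 10.21 with antibiotics. Top2a had every cMoP array above all others, by 0.28 ± 0.08 over CMPs (adjusted p 0.0205, and 0.103 without cMoP control 2). Plk4 read 7.63, 7.71 and 8.04 on control and 7.73, 7.54 and 7.72 on antibiotic CMP arrays. GMP arrays gave Plk4 values of 7.98 and 7.99 on control and 8.11, 8.14 and 8.18 on antibiotic water. In cMoPs Plk4 was at 7.53 and 8.0 with control and at 8.14, 8.22 and 8.06 with antibiotic water. Plk4 was called between GMPs and CMPs, at 0.34 ± 0.11 (adjusted p 0.0402), although the arrays overlapped through CMP control 3 and the call was lost without any of 11 arrays, which are cMoP antibiotic 1 and all CMP and GMP arrays but CMP control 3 (adjusted p 0.0529 to 0.105). Its cMoP control 1 was the lowest of the 16 arrays, and the difference of cMoPs from GMPs was -0.11 ± 0.11 (adjusted p 0.731).

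The signal of Mki67 was 9.87, 9.94 and 10.03 in control and 9.98, 10.08 and 9.77 in antibiotic CMPs. For GMPs, Mki67 read 9.77 and 9.6 in control and 9.72, 10 and 9.92 in antibiotic arrays. For cMoPs, Mki67 read 9.95 and 10.09 in control and 10.06, 10.19 and 9.91 in antibiotic arrays. Mki67 overlapped between all progenitors, with 0.09 ± 0.1 between cMoPs and CMPs (adjusted p 0.589) and -0.16 ± 0.1 between GMPs and CMPs (adjusted p 0.318). CMP arrays gave Nusap1 9.44, 9.47 and 9.25 with control and 9.46, 9.49 and 9.34 with antibiotic water. GMPs gave Nusap1 9.45 and 9.13 with control and 9.47, 9.41 and 9.32 with antibiotics. For Nusap1, cMoPs gave 9.64 and 9.65 with control and 9.65, 9.67 and 9.78 with antibiotics. Nusap1 had all cMoP arrays above all others, at 0.26 ± 0.09 over CMPs with an adjusted p just inside the threshold (0.05), lost without any of 14 arrays, all but GMP control 1 and GMP control 2 (0.053 to 0.119). Hmmr read 7.83, 8.04 and 8.04 on control and 7.86, 7.5 and 7.91 on antibiotic CMP arrays. GMP arrays gave Hmmr values of 7.85 and 7.76 on control and 7.81, 7.93 and 7.79 on antibiotic water. In cMoPs Hmmr was at 7.98 and 8.35 with control and at 8.16, 8.16 and 8.29 with antibiotic water. Hmmr differed by 0.32 ± 0.1 (adjusted p 0.0399), lost without any of 7 arrays, namely CMP control 1, CMP control 3, CMP antibiotic 2, cMoP control 2 or any antibiotic cMoP array (0.0506 to 0.196), and CMP and cMoP arrays overlapped.

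Other genes of the cell cycle were read from 8 further lists of genes that are not among the 44. Between cMoPs and CMPs the share over all genes to read them against is 18.9% called, 9.72% as higher and 9.2% as lower. Of 20 measured other mitotic regulators, 6 were called higher and 0 lower in cMoPs than in CMPs, with a median of 0.13. They included Cdkn3 (0.92 ± 0.17), a phosphatase of cyclin-dependent kinases, Sgo2a (0.77 ± 0.11), a protector of centromeric cohesin, Melk (0.69 ± 0.14), Haspin (0.69 ± 0.15), the histone H3 kinase that docks the passenger complex, and Cks1b (0.48 ± 0.1). Of 23 other spindle and cytokinesis genes, 11 were higher and 1 lower, with a median of 0.35. Cep55 (0.88 ± 0.12), which recruits the abscission machinery, led them, followed by Pimreg (0.77 ± 0.17), Troap (0.63 ± 0.15), Arhgap11a (0.63 ± 0.09) and Tacc3 (0.57 ± 0.08). Of 26 other centromere and kinetochore genes, 8 were higher and 1 lower, with Mis18a (0.76 ± 0.13), needed to load Cenpa, and Spc24 (0.62 ± 0.14) the largest, and Zwint (-0.44 ± 0.1) the one that fell.

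The other lists held fewer calls or calls in both directions. Of 33 S phase genes, 3 were called higher in cMoPs than in CMPs and 1 lower, with a median of 0.07, a smaller share than the 18.9% of all genes. The replication fork protein Cdc45 (0.75 ± 0.11), thymidine kinase Tk1 (0.56 ± 0.1) and the licensing factor Cdt1 (0.34 ± 0.09) were higher, and the chromatin assembly subunit Chaf1b (-0.52 ± 0.1) was lower. Of 18 G1 cyclins, kinases and inhibitors, 4 were higher and 5 lower. Cyclins Ccnd2 (-0.82 ± 0.1) and Ccne1 (-0.77 ± 0.11) and the antiproliferative Btg2 (-0.72 ± 0.17) fell, while the inhibitor Cdkn2c (0.7 ± 0.13) and the ubiquitin ligase subunit Skp2 (0.63 ± 0.12) rose. Of 18 condensin and cohesin genes, 2 rose (Ncaph by 0.53 ± 0.1 and Cdca5 by 0.41 ± 0.11) and the cohesin release factor Wapl fell (-0.5 ± 0.08). Of 15 subunits of the anaphase-promoting complex, 2 rose, Anapc15 (0.37 ± 0.12) and Anapc13 (0.24 ± 0.08). Differences between these lists were not tested.

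The factors known to act on mitotic promoters were in a list of 23 cell cycle transcription factors, of which 4 were called higher and 4 lower in cMoPs than in CMPs. Foxm1, an activator of G2 and M genes, was 0.64 ± 0.12 higher (adjusted p 0.000793), and the repressor E2f7 was 0.55 ± 0.13 higher. Tfdp2, a dimer partner of E2F proteins, stood at -1.03 ± 0.11, E2f5 at -0.49 ± 0.16, and the MuvB subunit Lin37 at 0.44 ± 0.11. Mybl2 (B-Myb), which joins MuvB at CHR promoters, was called higher in GMPs than in CMPs, at 0.57 ± 0.09 (adjusted p 0.000378), where E2f5 (-0.88 ± 0.16), Tfdp2 (-0.53 ± 0.11), E2f6 (-0.5 ± 0.13) and E2f4 (-0.44 ± 0.1) were lower.

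Between cMoPs and GMPs, where 5.42% of all genes were called, the same lists held few calls, except for the G1 list. Those called were 1 of 20 other mitotic regulators (Melk, 0.64 ± 0.15), 2 of 26 centromere genes (Mis18a, 0.56 ± 0.14, and Knl1, 0.37 ± 0.09), 2 of 23 spindle genes (Ckap2l, 0.43 ± 0.11, and Kpna2, 0.37 ± 0.09), 1 of 15 subunits of the anaphase-promoting complex (Anapc15, 0.45 ± 0.12), 1 of 18 condensin and cohesin genes (Ncaph, 0.53 ± 0.11) and 1 of 33 S phase genes (Tk1, 0.39 ± 0.1), all higher. Of the 23 transcription factors 1 was higher (E2f2, 0.73 ± 0.2) and 1 lower (Tfdp2, -0.5 ± 0.11). Of the 18 genes of the G1 list, 4 were higher, led by Ccnd1 (1.31 ± 0.11) and Cdkn2c (1.05 ± 0.13), and 3 lower, led by Ccnd2 (-0.56 ± 0.11). Between GMPs and CMPs, where 16% of all genes were called, the S phase list held 1 higher (Cdc45, 0.62 ± 0.11) and 3 lower (Chaf1b, -0.53 ± 0.1, Cdc6, -0.44 ± 0.12, and Rrm1, -0.31 ± 0.08), and the G1 list 3 lower, among them Ccne1 (-1.24 ± 0.11) and Ccnd1 (-0.82 ± 0.1). The other spindle genes were divided there, with 4 higher, led by Cep55 (0.51 ± 0.12), and 3 lower, led by Psrc1 (-0.71 ± 0.12).

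Antibiotic water left no mitotic gene past the threshold. The comparison with control water asks which genes differ in each progenitor after antibiotics, and its threshold is the adjusted p under 0.2 that the study's design states. By that rule 0 of the 44 genes were called in CMPs, GMPs or cMoPs, where 0.0406%, 0.0721% and 0.131% of all genes were, and 0 in the mean over the 3 progenitors, where 0.514% were. The F test for a difference of the water effect between progenitors called 0 as well, against 0.00451% of all genes, and the smallest adjusted p among the 44 genes in it was 0.865. At an unadjusted p under 0.05 the F test also gave 0, against 5.79% of all genes. At an unadjusted p under 0.05, limma gave 6 genes in CMPs, 0 in GMPs, 2 in cMoPs and 3 over the progenitors, against 7.24%, 7.49%, 6.2% and 9.54% of all genes. With ordinary variances in place of moderated ones the counts at an adjusted p under 0.2 stayed at 0.

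In CMPs most differences lay below 0. Of the 44 genes, 34 were lower on antibiotic water, against 51.6% of all genes and 53.9% of the brighter genes, with a median difference of -0.07. That median was -0.037 without CMP control 3, -0.033 without CMP antibiotic 2, -0.105 without CMP antibiotic 3 and -0.12 with each array centred on its median. The mean over the genes was 8.34 to 8.42 on control arrays and 8.24 to 8.31 on antibiotic arrays. Antibiotic and control arrays did not overlap for 9 genes, all lower, against 6.36% of all genes in that direction and 5.21% in the other. They were Cdk1, Plk1, Aurkb, Bub1b, Ttk, Ube2c, Cenpf, Kif18b and Kif2c. The 6 with an unadjusted p under 0.05 were Ube2c, Kif2c, Aurkb, Kif18b, Plk1 and Cenpf, all lower, against 3.86% of all genes lower by that rule. In the control and antibiotic values given above, all 3 antibiotic arrays of Ube2c (9.16 to 9.51) lay below the 3 control arrays (9.69 to 9.88), at a difference of -0.5 ± 0.15 (adjusted p 0.467, and 0.21 to 0.743 over other settings). The same held for Kif2c at -0.44 ± 0.13 (adjusted p 0.401), Aurkb at -0.4 ± 0.13 (0.479), Plk1 at -0.32 ± 0.14 (0.677), Cenpf at -0.29 ± 0.14 (0.686) and Bub1b at -0.22 ± 0.12 (0.725; -0.27 to -0.13 over the other settings).

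The signal of Kif18b was 8.18, 7.87 and 7.85 in control and 7.67, 7.8 and 7.55 in antibiotic CMPs. For GMPs, Kif18b read 7.85 and 7.85 in control and 7.77, 8.01 and 7.89 in antibiotic arrays. For cMoPs, Kif18b read 8.17 and 8.35 in control and 8.16, 8.23 and 8.08 in antibiotic arrays. Kif18b likewise had no overlap in CMPs, at -0.29 ± 0.13 (adjusted p 0.666), with values from -0.36 to -0.19 over the other settings. Among the leading genes of the other roles, Hmmr stood at -0.21 ± 0.14 (-0.29 to -0.09 over the other settings), Anln at -0.1 ± 0.12 (-0.15 to -0.05) and Top2a at 0.01 ± 0.11, with overlapping arrays. The Top2a value is so small that its sign turned in several settings. Racgap1 (0.01 ± 0.12), Tpx2 (0 ± 0.12), Kif11 (0 ± 0.1) and Mki67 (0 ± 0.13) were near 0.

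In GMPs 28 of the 44 genes were positive, against 47.6% of all genes and 48.6% of the brighter genes. Their median was 0.032, which became -0.01 when each array was centred on its median, and 0 had an unadjusted p under 0.05. Arrays did not overlap for 5 genes that were higher and 3 that were lower on antibiotics, against 10.4% and 12.6% of all genes. Spc25 had the largest difference among the leading genes of each role, at 0.33 ± 0.18 (adjusted p 0.721), with all 3 antibiotic arrays above both control arrays. Bub1b (0.22 ± 0.13), Plk4 (0.16 ± 0.16), Mki67 (0.2 ± 0.14) and Kif18a (0.21 ± 0.17) were also positive, and Ube2c (-0.22 ± 0.17), Kif20a (-0.21 ± 0.14), Cdk1 (-0.16 ± 0.13) and Aurka (-0.14 ± 0.19) negative. Their adjusted p ran from 0.721 to 0.921. Over the other settings Spc25 ran from 0.16 to 0.5, Ube2c from -0.37 to -0.09, Kif18a from 0.09 to 0.29, Mki67 from 0.11 to 0.28 and Aurka from -0.23 to -0.09.

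In cMoPs 30 genes were positive, against 47.8% of all genes and 54.7% of the brighter genes. Their median was 0.033 and ran from -0.022 without cMoP control 1 to 0.073 without cMoP control 2. With 2 control arrays, either of them carried much of the value. Arrays did not overlap for 7 genes that were higher and 3 that were lower, against 9.59% and 11.4% of all genes. Plk4 at 0.38 ± 0.16 (adjusted p 0.782) and Cdca3 at 0.33 ± 0.13 (adjusted p 0.758) had an unadjusted p under 0.05, against 2.75% of all genes higher by that rule. The Plk4 value rests on cMoP control 1, the lowest array, and was between 0.14 and 0.61 over the other settings. CMP arrays gave Kif22 7.76, 7.54 and 7.54 with control and 7.58, 7.36 and 7.18 with antibiotic water. GMPs gave Kif22 7.81 and 7.49 with control and 7.39, 7.36 and 7.7 with antibiotics. For Kif22, cMoPs gave 7.76 and 7.71 with control and 8.07, 8.11 and 7.92 with antibiotics. Kif22 had the 3 antibiotic arrays of cMoPs above both control arrays, at 0.3 ± 0.16 (adjusted p 0.838). Spc25 (0.3 ± 0.18), Ttk (0.16 ± 0.16) and Espl1 (0.13 ± 0.18) were positive, and Aurka (-0.26 ± 0.19) and Kif23 (-0.19 ± 0.14) negative. Over the other settings Spc25 ran from 0.15 to 0.44, Ttk from 0.05 to 0.26, Espl1 from 0.03 to 0.22, Aurka from -0.48 to -0.03 and Kif23 from -0.27 to -0.12.

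**Figure D5:**
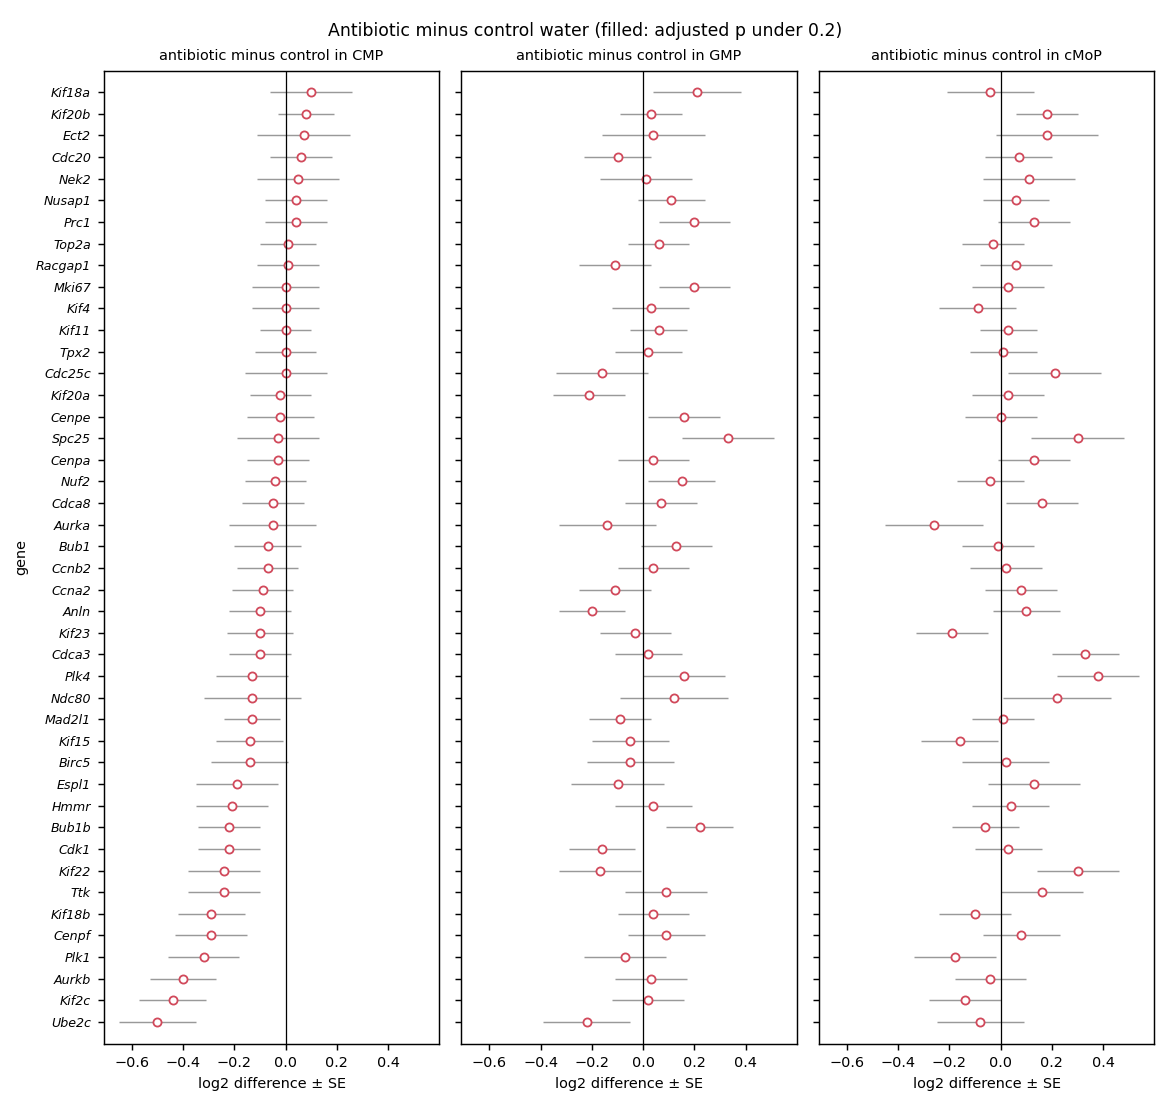
Log2 difference between antibiotic and control water in CMPs, GMPs and cMoPs, with its standard error, for the 44 measured genes ordered by the difference in CMPs; points with a limma adjusted p under 0.2 would be filled. No point is filled, and in CMPs the values run from Ube2c (-0.5) to Kif18a (0.1).

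Averaged over the 3 progenitors, 22 genes were positive, against 45.8% of all genes and 49.2% of the brighter genes, and 22 negative, with a median of -0.002. Ube2c at -0.27 ± 0.09 (adjusted p 0.369), Plk1 at -0.19 ± 0.09 (0.519) and Kif2c at -0.19 ± 0.08 (0.472) had an unadjusted p under 0.05, all lower, against 5.23% of all genes lower by that rule. With a variance trend and robust moderation, Ube2c passed the threshold at an adjusted p of 0.184. Spc25 (0.2 ± 0.1), Plk4 (0.13 ± 0.09), Prc1 (0.12 ± 0.08) and Mki67 (0.08 ± 0.08) were the leading positive genes of their roles, and Aurkb (-0.14 ± 0.08) and Mad2l1 (-0.07 ± 0.07) were negative.

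Whether the water effect differed between progenitors was also read pair by pair. The effect in cMoPs minus that in CMPs was positive for 38 of the 44 genes with a median of 0.14, against 49.7% of all genes and 56.9% of the brighter genes. The effect in GMPs minus that in CMPs was positive for 34 with a median of 0.095, against 49.6% and 52.3%, and it uses the same CMP arrays. Between cMoPs and GMPs 22 were positive, against 50.5% and 55.1%. In these 3 comparisons 0 of the 44 genes were called by limma at an adjusted p under 0.2, against 0.00902%, 0.0225% and 0% of all genes, and 3, 3 and 0 had an unadjusted p under 0.05, against 6.03%, 5.6% and 5.31%. The 3 for cMoPs and CMPs were Kif22 (0.54 ± 0.21), Plk4 (0.51 ± 0.21) and Cdca3 (0.44 ± 0.18), and those for GMPs and CMPs were Kif2c (0.46 ± 0.19), Bub1b (0.44 ± 0.18) and Aurkb (0.43 ± 0.19), all with adjusted p between 0.804 and 0.883.

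Of 33 S phase genes, 0 were called for water in any progenitor. The difference was below 0 for 27 of them in CMPs, against 51.6% of all genes, with a median of -0.14, and for 25 in GMPs, against 52.3%, with a median of -0.11. In cMoPs it was above 0 for 20, against 47.8%. The mean of the S phase genes was 8.7 to 8.73 on control and 8.57 to 8.6 on antibiotic CMP arrays, 8.66 on both control and 8.51 to 8.56 on antibiotic GMP arrays, and 8.69 to 8.73 and 8.7 to 8.75 on cMoP arrays. No gene of the 8 further cell cycle lists was called for water in any progenitor. The genes of smallest p in CMPs included Sgo2a (0.55 ± 0.15), Mis18a (-0.53 ± 0.18), Skp2 (-0.51 ± 0.16), Gins2 (-0.43 ± 0.15) and Lin9 (-0.35 ± 0.13), those in GMPs Fam83d (0.71 ± 0.24), Cdkn2c (-0.67 ± 0.19) and Anapc11 (-0.5 ± 0.14), and those in cMoPs E2f5 (0.66 ± 0.24), Kif24 (-0.45 ± 0.16) and Cks1b (-0.34 ± 0.14). Markers of other cells in CMPs are given by their values, since 0 genes of the lists that follow were called for water there. The 7 genes associated with cMoPs averaged 7.28 to 7.46 on control and 6.73 to 7.21 on antibiotic CMP arrays, with 6 of 7 lower. The 11 monocyte and macrophage genes averaged 5.61 to 5.82 and 5.29 to 5.57, with 9 lower. The 6 genes associated with GMPs averaged 9.27 to 9.64 and 8.71 to 9.49, which overlap, with 5 lower. The 13 erythroid genes averaged 8.0 to 8.16 and 8.1 to 8.36, which overlap too, with 8 higher. Over the 3 progenitors, 2 of the 7 genes associated with cMoPs and 2 of the 11 monocyte and macrophage genes were called lower. These 2 lists share genes. Of the 13 erythroid genes 1 was called higher, and 0.514% of all genes were called in that comparison. In GMPs all 7 genes associated with cMoPs were lower, with 0 called, and in cMoPs 3 were lower and 4 higher. The part of these markers in the lower mitotic values of antibiotic CMPs was not tested.

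Within groups, the mitotic genes varied together to different degrees. Each array's deviation from its group mean was correlated, gene by gene, with the mean deviation of the other 43 genes over the 16 arrays, as a description across arrays that share hybridisations and 10 residual degrees of freedom. The median r was 0.274 for the 44 genes and -0.0232 for all other genes. It exceeded 0.5 for 12 genes, against 6.86% of other genes, and was highest for Top2a (0.833), Cenpe (0.817), Plk4 (0.774) and Hmmr (0.722). It was below 0 for 12 of the 44 genes, lowest for Ndc80 (-0.562) and Aurkb (-0.401). Among all other genes the median itself was below 0 (-0.0232), and their share below 0 was not counted. Averaged over the 44 genes, the deviation ran from -0.053 on cMoP control 1 to 0.053 on cMoP control 2, the pair of arrays that make up the control cMoPs.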

How the data were processed

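RNA of 16 sorted bone-marrow progenitor samples was measured on microarrays. The deposited values are log2 signals per probe set; Partek and Transcriptome Analysis Console are named in the submitters' processing notes, and how signals were summarised and normalized is not given in the sources used here. Of 41345 probe sets, 23521 carried a single gene symbol, 1814 carried several and 16010 had no name, and the brightest single-symbol probe set stood for each of 22180 genes.

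A mean per group of progenitor and water was fitted with limma 3.58.1 in R 4.3.3 (moderated variances, 10 residual degrees of freedom), and p-values were adjusted over all genes by Benjamini-Hochberg. Calls used 0.2 for water and its interaction, as in the study's design, and 0.05 between progenitors, a threshold chosen here. Groups hold 2 or 3 arrays, which limits the precision. Progenitor means weight both waters equally. The procedure was checked on simulated data. The members and gene lists were chosen with earlier results of these data known. Full array values are given for the gene of smallest p in each role and comparison and for other members described beside them, and at most 5 genes of largest difference are named per further list. Promoters were read from a RefSeq table of GRCm38.p6. Alternatives were other gene filters, probe rules, scalings, variance models and single arrays left out.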

Additional observations from a re-analysis of the deposited data

How the results depend on the processing

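The median differences between progenitors stayed above 0 in every setting run, while counts of calls moved. Between cMoPs and GMPs, 8 genes were called, and 17 were with only the genes brighter than the median gene, 5 with every probe set tested, 19 with trend and robust variances, 14 with no moderation of variances and 5 with only the arrays compared. Leaving out an array at a time gave 4 (without cMoP control 2) to 9, with a median difference of 0.249 to 0.311. Between GMPs and CMPs it gave 4 to 9 called genes and medians of 0.079 to 0.112, and between cMoPs and CMPs 21 to 30 called genes and medians of 0.323 to 0.407. For antibiotic water, centring the arrays on their medians moved the median difference in CMPs from -0.07 to -0.12 and in GMPs from 0.032 to -0.01. Without an array it ran from -0.105 to -0.033 in CMPs, -0.008 to 0.045 in GMPs, -0.022 to 0.073 in cMoPs and -0.017 to 0.026 over the progenitors. With trend and robust variances 1 gene, Ube2c, was called over the progenitors. Top2a under water in CMPs turned from 0.01 to -0.04 with arrays centred on the median, and ran from -0.03 to 0.05 without an array; in cMoPs it ran from -0.14 to 0.07. The cause of these shifts was not tested. Other probe sets of a gene could not be tried, as no member has another single-symbol probe set. Over all named genes and comparisons, leaving out an array kept the direction and the side of the threshold in 1317 cases, lost a call in 101, gained one in 2 and turned a sign in 4.

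The labels do not state whether the replicate numbers pair the samples. Arrays of the same number and water from different progenitors had deviations correlated at -0.049 to 0.104 over 15 pairs, with 1 over 0.1. Their median was 0.0286. For 28 pairs of other numbers the range was -0.104 to 0.0605, with a median of -0.0154. Correlations this weak cannot tell whether samples were paired. With the number as a replicate block, 8 genes were called between GMPs and CMPs, 6 between cMoPs and GMPs and 24 between cMoPs and CMPs, and 0 in each water comparison and in the interaction. The medians with the block were 0.095, 0.281 and 0.363, and for water -0.07 in CMPs, 0.016 in GMPs, 0.027 in cMoPs and -0.022 over the progenitors.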
